A study of Mus musculus with 6 samples.

Results

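Expression of the core genes of NF-kappaB signaling was described in the prefrontal cortex of aged mice after anesthesia and surgery. The 10 genes were the 5 subunits Rela, Nfkb1, Rel, Nfkb2 and Relb, the inhibitors Nfkbia and Nfkbib, and the kinase complex genes Chuk, Ikbkb and Ikbkg. The paper reports NF-kappaB signaling among the enriched terms of its differentially expressed mRNAs. The 10 genes were chosen by name, with earlier results of these data known, from the 21006 genes with a value. All 10 had a row and passed the filter on low values (a mean of at least 0.1 FPKM over the 6 samples), which left 18185 genes for testing. Levels are in FPKM, which scales the fragments of a gene by its exon length and by the depth of the sample.

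All animals were male wild type C57BL/6 mice. The age label gives 18 months, while the sample titles carry 17M. The PND group (n = 3), a model of postoperative neurocognitive disorder, breathed 1.5% isoflurane for 30 min and then had an exploratory laparotomy of 30 min under isoflurane, followed by lidocaine cream and povidone iodine on the incision. The CON group (n = 3) had no anesthesia and no operation, so isoflurane, surgery and wound care cannot be told apart. According to the methods of the study, animals of both groups went through fear conditioning with foot shocks, an open field and a Barnes maze. Both groups were also given deep isoflurane and a saline perfusion at harvest, which followed the maze. In the methods the maze ran over several days after the operation, so the levels are not those of the first hours after surgery. Each sample was the bulk tissue of 1 animal, in which fewer cells of a type and less RNA per cell cannot be told apart.

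NF-kappaB is a family of dimeric transcription factors that respond to cytokines, microbial products and injury. In resting cells inhibitors of the IκB family hold the dimers in the cytoplasm. In the canonical branch the kinase complex made of IKKα, IKKβ and NEMO phosphorylates the inhibitor, which is then ubiquitinated and degraded, and dimers such as RELA with the processed product of Nfkb1 enter the nucleus. In the alternative branch NIK and IKKα drive the processing of the Nfkb2 precursor, which partners with RELB. In brain the pathway is known from microglia, astrocytes, endothelial cells and neurons. Most of its control acts on proteins, through phosphorylation, degradation and transport, and mRNA levels do not measure these steps. The precursor and the processed product of Nfkb1, and likewise of Nfkb2, come from the same mRNA and share 1 value here.

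NF-kappaB is known to induce some of its own genes, Nfkbia above all, so the DNA before the members' start sites was read first. RefSeq start sites on GRCm38.p6 were given for 7 of the 10 members, in windows from 250 bases before to 50 bases after the start. The windows of Rel, Nfkbia and Nfkb2 held the 10-base κB consensus on either strand, and those of Rela, Chuk, Nfkbib and Ikbkg did not. Nfkb1, Relb and Ikbkb had no entry. A gene was counted when any of its windows held a match, as did 5.14% of all genes (1388 of 27025). The sequences below are shown because they carry these matches, in capitals, with overlapping matches merged. They are read 5′ to 3′ on the strand of the gene. For Nfkbia the stretch is chr12:55492648-55492897 on the minus strand, for Rel chr11:23770971-23771219 on the minus strand, and for Nfkb2 chr19:46304688-46304717 on the plus strand, which lies in an annotated Nfkb2 exon upstream of the start site used.
Nfkbia: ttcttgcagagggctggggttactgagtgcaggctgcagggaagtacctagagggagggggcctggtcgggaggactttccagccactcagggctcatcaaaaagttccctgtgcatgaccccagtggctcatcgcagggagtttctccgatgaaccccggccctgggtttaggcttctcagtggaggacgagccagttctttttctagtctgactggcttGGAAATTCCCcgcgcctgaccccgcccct
Rel: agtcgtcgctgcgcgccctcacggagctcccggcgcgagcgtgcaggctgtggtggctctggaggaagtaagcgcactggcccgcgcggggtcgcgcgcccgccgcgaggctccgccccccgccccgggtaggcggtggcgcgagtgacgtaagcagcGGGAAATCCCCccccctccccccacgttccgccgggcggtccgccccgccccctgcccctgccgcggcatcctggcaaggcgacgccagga
Nfkb2: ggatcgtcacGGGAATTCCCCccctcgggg
Counted from the start site, with bases before it negative, the match of Nfkbia ran from -29 to -20, that of Rel from -92 to -82, and the one printed for Nfkb2 from -39 to -29. A match describes the letters only and not binding in these animals.

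No mRNA difference between PND and CON passed any of the calls used for any member. In limma 0 of the 10 members had an unadjusted p below 0.05, where 3.13% of all genes tested did (569 of 18185). The cut-off of the study, an absolute log2 fold change above 1 with an unadjusted p below 0.05, was passed by 0 of 10 members and by 1.33% of all genes. The adjusted p of limma was below 0.05 for 0 of 10 members and for 0.011% of all genes (2 genes), and the count by voom on estimated fragments was likewise 0 of 10. Fold changes are given on the log2(FPKM + 0.1) scale, on which differences of low genes come out too small. On it 5 members had a positive and 5 a negative value, with a median of -0.01, beside a median of 0.01 over all genes tested. The 3 samples of 1 group lay wholly above those of the other for 1 of 10 members (Chuk), beside 7.66% of all genes. An exact permutation test of 3 against 3 cannot give a p below 0.1, and the adjusted p of every member in limma was 0.9999.

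The 6 samples were estimated to hold between 7213679 and 9407079 fragments, from the steps in the low values, since the depth was not given. The members differed widely in the fragments behind them. Chuk rested on 283 to 383 estimated fragments per sample, Relb on 0.705 to 11.2 and Nfkb2 on 1.36 to 16.3. For 6 members the 95% interval of the log2 fold change lay between -1 and 1, so that for Nfkb1, Rela, Rel, Nfkbia, Chuk and Ikbkb a 2-fold difference in either direction lay outside it. For Nfkb2, Nfkbib and Ikbkg the interval reached past 2-fold in both directions, and for Relb only towards higher levels in PND. A 2-fold difference on those sides lay inside the interval.

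**Figure D1:**
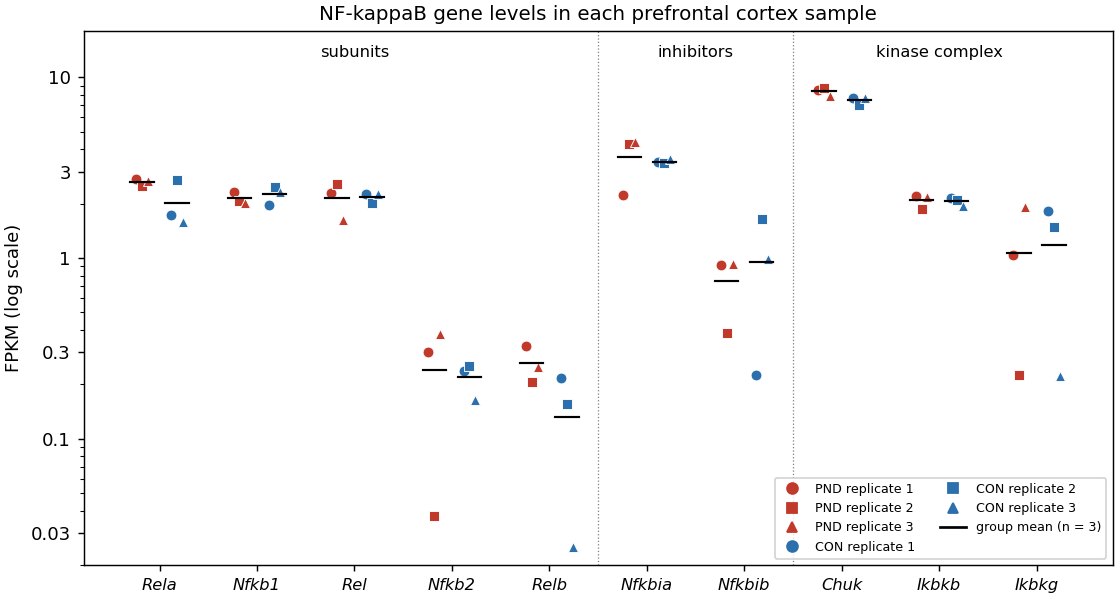
FPKM of the 10 genes (log axis) in every sample, PND in red and CON in blue, with a marker shape per replicate number and a black line at the group mean. The groups overlap for every gene except Chuk, and Ikbkg, Nfkbib, Nfkb2 and Relb show samples several-fold below the rest.

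Among the subunits, Rela, Nfkb1 and Rel had similar FPKM values, and Nfkb2 and Relb lay far below. Rela (ENSMUSG00000024927, chr19:5637483-5648130 on the plus strand) encodes the main transactivating subunit of the canonical branch. Its level was 2.75, 2.51 and 2.67 FPKM in PND replicates 1 to 3 and 1.72, 2.71 and 1.59 FPKM in CON replicates 1 to 3. The PND samples were close together, while CON replicate 2 reached into their range and the other two CON samples lay below it. The means were 2.64 ± 0.118 and 2.01 ± 0.614 FPKM (SD, n = 3 each). The log2 fold change was 0.42 (SE 0.24, 95% interval -0.13 to 0.97), with a limma p of 0.117 and an exact permutation p of 0.3. Rela was the member with the smallest p, and its value depended on single controls. Without CON replicate 2 the log2 fold change was 0.65 with a limma p of 0.0125. It was 0.33 without CON replicate 1 (limma p 0.245) and 0.28 without CON replicate 3 (limma p 0.317). With the correction for GC content described below it was 0.32 (limma p 0.207).

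Nfkb1 (ENSMUSG00000028163, chr3:135584655-135691547 on the minus strand) encodes the precursor whose processed form is the usual partner of RELA. Its level was 2.31, 2.08 and 2.02 FPKM in PND and 1.97, 2.49 and 2.31 FPKM in CON. The groups overlapped over most of their range. The means of 2.14 ± 0.150 and 2.26 ± 0.262 FPKM gave a log2 fold change of -0.07 (SE 0.18, 95% interval -0.50 to 0.36) and a limma p of 0.703. Rel (ENSMUSG00000020275, chr11:23736847-23770970 on the minus strand) encodes c-Rel, best known from lymphocytes. Its level was 2.29, 2.57 and 1.63 FPKM in PND and 2.27, 2.01 and 2.27 FPKM in CON. The PND samples spanned the whole CON range, and the log2 fold change was -0.03 (SE 0.22, 95% interval -0.55 to 0.48, limma p 0.881).

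Both subunits of the alternative branch were near the lower end of what this depth can measure. Nfkb2 (ENSMUSG00000025225, chr19:46304320-46312385 on the plus strand) was at 0.301, 0.0374 and 0.378 FPKM in PND and at 0.237, 0.254 and 0.164 FPKM in CON. PND replicate 2 stood for 1.36 estimated fragments, and the other 2 PND samples lay above every CON sample. The log2 fold change was -0.09 (SE 0.54, 95% interval -1.35 to 1.18, limma p 0.877), and 0.47 without PND replicate 2. Relb (ENSMUSG00000002983, chr7:19606217-19629438 on the minus strand) was at 0.327, 0.206 and 0.250 FPKM in PND and at 0.217, 0.155 and 0.0251 FPKM in CON. PND replicate 2 lay below CON replicate 1, the only crossing between the groups, and CON replicate 3 stood for 0.705 estimated fragments. The log2 fold change of 0.73 was the largest among the members (SE 0.47, 95% interval -0.37 to 1.82, limma p 0.162, exact permutation p 0.2). It was 0.33 without CON replicate 3, 0.16 at a pseudocount of 1, 1.28 at a pseudocount of 0.01 and 1.04 by voom, with a limma p of 0.119 or more in these settings.

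The make-up of the subunit pool was also compared. Nfkb2 and Relb together took 3.28% to 9.05% of the summed FPKM of the 5 subunits in PND and 2.98% to 7.07% in CON. Rela took 33.9% to 38.4% in PND and 24.9% to 35.6% in CON, and Rel 23.4% to 34.7% and 26.3% to 35.7%. The share of Nfkb1 was 28.1% to 29.1% in PND and 30.8% to 36.4% in CON. Of the 6 shares and 4 ratios computed, this share and the FPKM ratio of Rela to Nfkb1 did not overlap between the groups. Both draw on Nfkb1 and Rela, the share also on the other subunits, and the share was not tested. The ratio was 1.19 to 1.32 in PND and 0.686 to 1.09 in CON, with an exact permutation p of 0.1, the smallest that 3 against 3 allows. After the correction for GC content described below, the log2 ratio was 0.16, 0.57 and -0.03 in PND and 0.45, -0.40 and -0.48 in CON, so that the groups overlapped (exact permutation p 0.3). The difference of the mean log2 ratios was 0.49 as deposited and 0.37 after the correction, while the SD went from 0.08 to 0.31 in PND and from 0.32 to 0.52 in CON.

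The inhibitors hold NF-kappaB dimers in the cytoplasm. Nfkbia (ENSMUSG00000021025, chr12:55489410-55492647 on the minus strand), which encodes IκBα and is a classical early target of the pathway, was at 2.22, 4.25 and 4.39 FPKM in PND and at 3.38, 3.35 and 3.53 FPKM in CON. The CON samples had an SD of 0.0949 FPKM, while the PND samples had one of 1.21 FPKM and fell on either side of them, replicate 1 below and replicates 2 and 3 above. The log2 fold change was 0.02 (SE 0.27, 95% interval -0.61 to 0.65, limma p 0.944). Nfkbib (ENSMUSG00000030595, chr7:28758251-28767512 on the minus strand), which encodes IκBβ, was at 0.913, 0.383 and 0.932 FPKM in PND and at 0.225, 1.65 and 0.983 FPKM in CON. The PND values lay within the CON range, which spanned 7.36-fold. The log2 fold change was -0.10 (SE 0.64, 95% interval -1.60 to 1.41, limma p 0.886). Nfkbia exceeded Nfkbib by 2.43 to 11.1 times in PND and by 2.03 to 15.1 times in CON.

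Of the kinase complex, Chuk had the highest FPKM of all members. Chuk (ENSMUSG00000025199, chr19:44073335-44107480 on the minus strand) encodes IKKα, which acts in both branches. Its level was 8.51, 8.76 and 7.91 FPKM in PND and 7.64, 7.05 and 7.71 FPKM in CON, so that every PND sample lay above every CON sample. The means were 8.40 ± 0.440 and 7.47 ± 0.359 FPKM. The difference was small, at a log2 fold change of 0.17 (SE 0.12, 95% interval -0.12 to 0.45), with a limma p of 0.207 and an exact permutation p of 0.1. Over the alternatives that kept all 6 samples the limma p ranged from 0.0774 with GC correction to 0.389 with median centring. With median centring the groups overlapped for Chuk, and Rela was then the 1 member without overlap.

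Ikbkb (ENSMUSG00000031537, chr8:22659212-22706589 on the minus strand) encodes IKKβ, the main IκB kinase of the canonical branch. Its level was 2.21, 1.88 and 2.18 FPKM in PND and 2.16, 2.10 and 1.94 FPKM in CON. All 6 values lay within 1.18-fold, and the log2 fold change was 0.01 (SE 0.18, 95% interval -0.40 to 0.43, limma p 0.939). Chuk exceeded Ikbkb by 3.63 to 4.67 times in PND and by 3.36 to 3.98 times in CON.

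Ikbkg (ENSMUSG00000004221, chrX:74393290-74453854 on the plus strand) encodes NEMO, the regulatory subunit that binds ubiquitin chains. Its level was 1.04, 0.226 and 1.92 FPKM in PND and 1.82, 1.49 and 0.223 FPKM in CON. PND replicate 2 and CON replicate 3 were several-fold below the other 4 samples, 1 in each group, and they stood for 14.5 and 13.1 estimated fragments. The within-group SD of 1.38 on the log2 scale was larger than that of 99.1% of the 12387 genes with at least 1 FPKM, whose median was 0.245. The log2 fold change was -0.13 (SE 0.86, 95% interval -2.15 to 1.89, limma p 0.883), and it ranged from -0.94 to 0.61 when each sample was left out in turn. Exons of Ikbkg share 418 bases with G6pdx on the opposite strand, a gene at 5.34 FPKM, and the use of strand in counting was not stated. The part of this overlap in the spread was not tested.

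**Figure D2:**
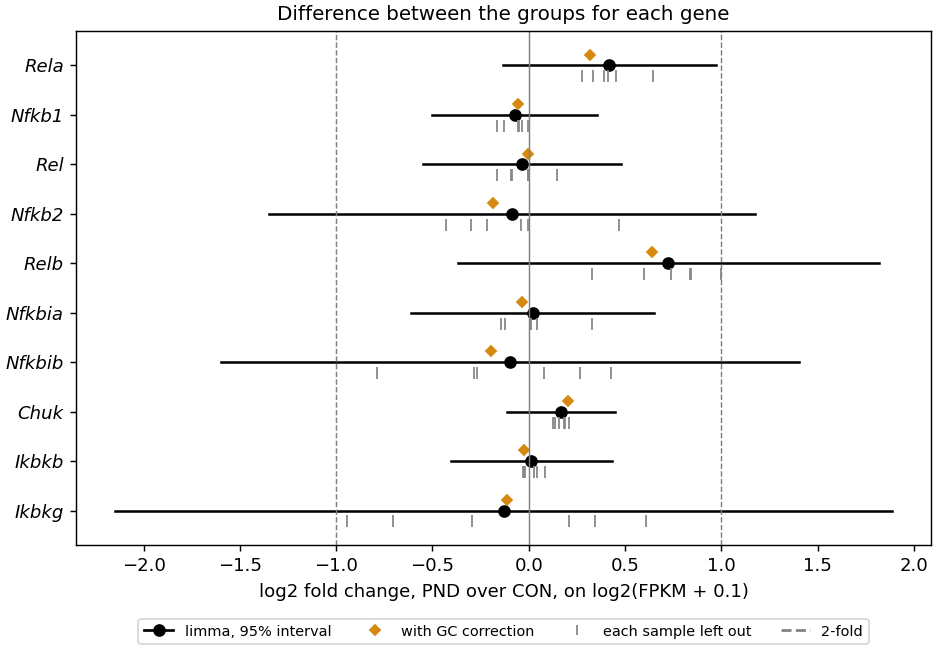
Log2 fold change of PND over CON for each gene on log2(FPKM + 0.1), with the limma estimate and its 95% interval in black, the GC-corrected estimate as a diamond, and grey ticks for the fits that left out 1 sample each. Every interval includes 0, and those of Nfkb2, Relb, Nfkbib and Ikbkg pass a dashed 2-fold line on at least 1 side.

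Across the 6 samples the mean levels ran from Chuk at 7.93 FPKM through Nfkbia (3.52), Rela (2.32), Nfkb1 (2.20), Rel (2.17), Ikbkb (2.08), Ikbkg (1.12) and Nfkbib (0.848) to Nfkb2 (0.228) and Relb (0.197 FPKM). Levels are divided by an exon length, and the annotation the authors used for it was not given, so the order depends on that length. Ikbkb, with 19078 annotated exon bases, rested on 266 to 391 estimated fragments per sample. Chuk, with 5087 bases, rested on 283 to 383. Of the 9 neighbouring pairs in this order, Chuk exceeded Nfkbia and Ikbkb exceeded Ikbkg in 6 of 6 samples. Each of these pairs had an exact sign-flip permutation p of 0.03125, the smallest that 6 samples allow, and an adjusted p of 0.141 over the 9 pairs. Nfkbia exceeded Rela in 5 of 6 samples (exact permutation p 0.0938) and Nfkbib exceeded Nfkb2 in 5 of 6 (exact permutation p 0.0625). The order among Rela, Nfkb1, Rel and Ikbkb, between Ikbkg and Nfkbib, and between Nfkb2 and Relb was not larger than the spread, with exact permutation p-values of 0.625 or more.

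The samples differed in the level of GC-rich genes in a way that crossed the groups, and the GC-rich members followed this in part. Rela, Nfkb2, Nfkbib and Relb had a GC content above the upper quartile of tested genes (53.5%, with a median of 48.4%). Over all genes above that quartile with at least 1 FPKM, the median log2 deviation from the gene mean was 0.10, -0.25 and 0.29 in PND replicates 1 to 3 and -0.44, 0.39 and -0.03 in CON replicates 1 to 3. The mean deviation of the 4 GC-rich members was 0.39, -0.41 and 0.38 in PND and -0.35, 0.35 and -0.37 in CON. The signs of this mean and of the median were the same in every sample, but not for each member. Nfkbib matched the sign in 5 of 6 samples, Rela in 5 (not in PND replicate 2), Nfkb2 in 5 (not in CON replicate 1) and Relb in 3. In CON replicate 3 the mean of the members lay well beyond the median of the other GC-rich genes. After a correction of each sample for GC content, the means of the 4 members were 0.30, -0.12 and 0.04 in PND and 0.18, -0.08 and -0.32 in CON. The within-group SD of Nfkbib fell from 0.990 to 0.605 on the log2 scale and that of Nfkb2 from 0.706 to 0.594, while that of Rela was 0.285 before and 0.306 after, and that of Relb 0.525 and 0.650. For Ikbkg, with a GC content of 44.7%, it was 1.38 before and 1.39 after.

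**Figure D3:**
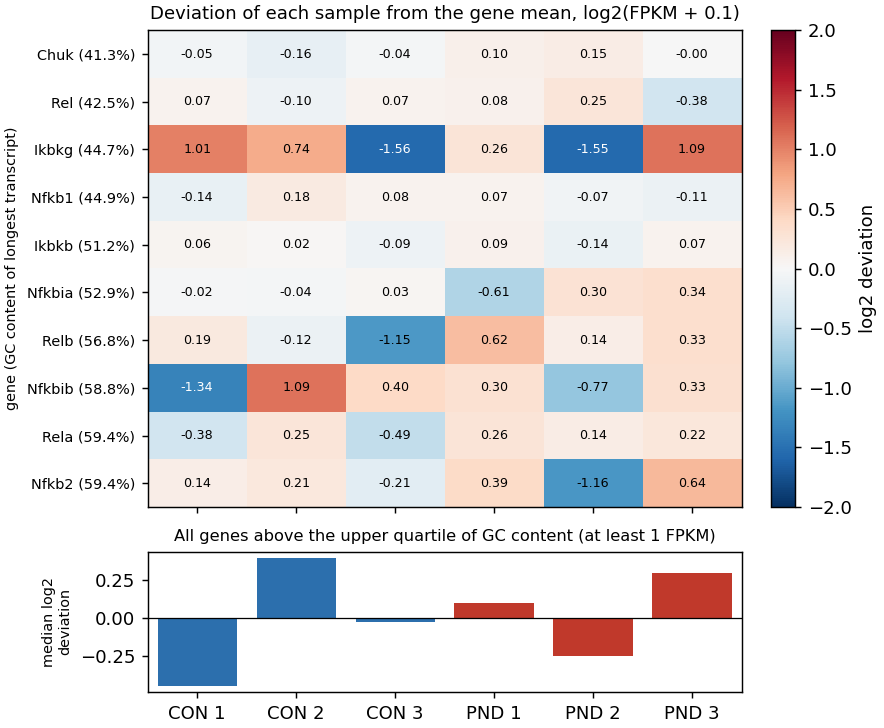
Upper panel, log2 deviation of each sample from the mean of each gene, with genes ordered by GC content; lower panel, median log2 deviation of all genes above the upper quartile of GC content. CON 1 and PND 2 are low and CON 2 and PND 3 high in the lower panel, where Nfkbib has -1.34, -0.77, 1.09 and 0.33 in these 4 samples and Relb, also GC-rich, has 0.19, 0.14, -0.12 and 0.33.

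Other overlaps could also touch single members. Nfkb2 exons share 299 bases with Psd on the opposite strand, which was at 6.32 FPKM against 0.228 for Nfkb2. Nfkbib exons share 42 bases with Sirt2 (4.11 FPKM) and 314 with Ccer2 (0.421 FPKM), both on the opposite strand. Transcripts of Relb, Ikbkb and Ikbkg also held stretches of up to 125, 130 and 174 bases with at least 95% identity to transcripts of genes elsewhere in the genome, and how the authors' counting divided reads there was not stated. Reads from antisense partners cannot be told apart without strand, so the levels of Nfkb2, Nfkbib and Ikbkg are uncertain to that extent.

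The rest of the pathway was read from 8 lists with 74 genes, of which 69 had a row and 59 were tested. Of the 59, 1 gene (Lcn2) had an unadjusted p below 0.05, higher in PND, and 0 were lower, which is no more than the 3.13% of all genes. In all, 30 had a positive and 29 a negative log2 fold change, with a median of 0.01, the same as over all genes tested. Of the 3 tested genes for other IκB proteins, 0 passed, with a median of 0.38. Their most abundant member was Nfkbiz, an atypical nuclear IκB, at 1.57 FPKM in PND and 1.53 FPKM in CON.

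Upstream of the inhibitors, 0 of 18 adaptors and ubiquitin ligases passed (median 0.10), nor did any of the 7 kinases that act on or resemble the IκB kinases (median 0.07). Ube2n, the conjugating enzyme that builds the ubiquitin chains bound by NEMO, was at 45.5 ± 0.740 FPKM in PND and 46.3 ± 3.14 FPKM in CON. Tbk1, an IκB kinase relative of interferon signaling, was at 35.2 ± 5.20 and 33.3 ± 2.49 FPKM. Of the 5 genes of the ligase that marks IκB for degradation all had negative values and 0 passed (median -0.06). Skp1a, its adaptor subunit, was at 66.7 ± 13.7 FPKM in PND and 76.4 ± 7.55 FPKM in CON, the most abundant gene of the lists.

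Downstream, 0 of 8 negative feedback and deubiquitinase genes passed (median -0.12). Cyld, which removes ubiquitin chains from pathway proteins, was at 37.0 ± 2.43 FPKM in PND and 39.5 ± 5.74 FPKM in CON. Of the 4 nuclear cofactors 0 passed (median -0.04), and Crebbp, a histone acetyltransferase that RELA recruits, was at 14.9 and 15.9 FPKM. Of the 6 survival and stress targets 0 passed (median -0.11). Sod2, a mitochondrial superoxide dismutase, was at 52.4 and 54.1 FPKM.

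Inflammatory target genes were mostly at or near 0. Of 22 listed, 18 had a row and 8 passed the filter, which a gene can pass through 1 group alone. Of these 8, 5 had a positive and 3 a negative log2 fold change, with a median of 0.34. The most abundant, Ptgs2, named here after its values were seen, was at 5.93 FPKM in PND and 5.13 FPKM in CON (limma p 0.245). Tnf, Il1b and Ccl2, which encode cytokines and a chemokine of acute inflammation and are named here after their values were seen, were each listed at 0 in 5 of 6 samples. Lcn2 (ENSMUSG00000026822), a secreted iron-sequestering protein of reactive astrocytes and other cells, was the only one with an unadjusted p below 0.05. Its level was 0.163, 0.286 and 0.285 FPKM in PND, or 3.77, 5.95 and 7.02 estimated fragments, and it was listed at 0 in all 3 CON samples. No fold is given against 0, and Lcn2 passed the filter through its PND samples alone. The limma p was 0.00352 and the adjusted p over all genes 0.9999. Without PND replicate 2, or without PND replicate 3, its mean fell below the filter and it was not tested.

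Cxcl1, a neutrophil chemokine named here after its values were seen, did not pass the filter. It was at 0.0801, 0.0896 and 0.0754 FPKM in PND, each 1.33 estimated fragments, and listed at 0 in all CON samples, a difference that this depth cannot show since it lies below the floor of 3 fragments. Its RefSeq window held the κB consensus at chr5:90891164-90891193 on the plus strand of GRCm38.p6 (in capitals), shown for comparison with the sites of the members.
Cxcl1: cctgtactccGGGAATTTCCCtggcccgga
The κB consensus was found for 3 of 3 other IκB genes, 6 of 15 inflammatory targets, 3 of 7 feedback genes, 3 of 6 survival targets, 2 of 15 adaptors and ligases, 1 of 6 kinases, 0 of 4 IκB degradation genes and 0 of 2 nuclear cofactors with a RefSeq window, beside the 5.14% of all genes. The members with a match had log2 fold changes of -0.09 (Nfkb2), -0.03 (Rel) and 0.02 (Nfkbia).

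**Figure D4:**
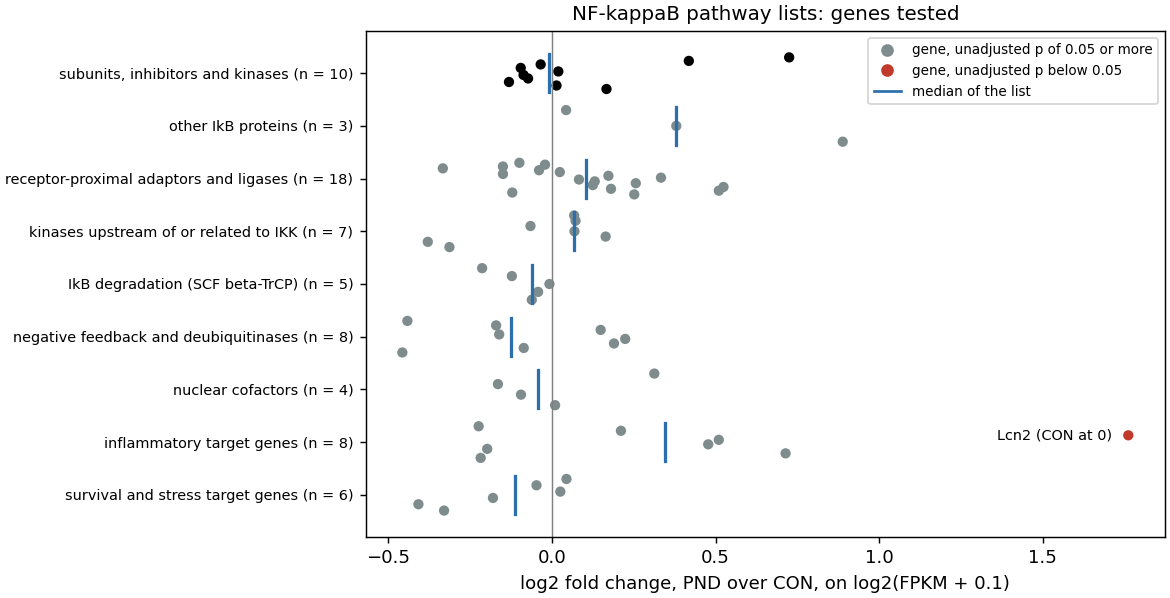
Log2 fold change (PND over CON, log2(FPKM + 0.1)) of each tested gene in the 10-gene set (black) and the 8 pathway lists (grey, red where the unadjusted p was below 0.05), with the median of each list in blue. The medians lie between -0.12 and 0.38, and the single red point is Lcn2, which enters the median of its list and whose position depends on the added 0.1 FPKM because CON was at 0.

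The tissue label was checked against markers. All 6 markers of cortical excitatory neurons were above 0 in every sample, with sums of 144 to 176 FPKM in PND and 142 to 222 FPKM in CON. Of these 6, 1 had a positive log2 fold change. Striatal neuron markers (5 of 5 with a row) were also present, with sums of 52.3 to 65.0 FPKM in PND and 38.6 to 80.1 FPKM in CON. All 5 had a positive log2 fold change and 0 had an unadjusted limma p below 0.05. A share of striatal tissue in the samples was not tested. Cell types known for NF-kappaB activity were present at overlapping levels. Microglial markers (10 of 10 with a row) summed to 55.5 to 65.7 FPKM in PND and 52.3 to 70.8 FPKM in CON, and astrocyte markers (7 of 7) to 326 to 445 and 277 to 568 FPKM. Endothelial markers (6 of 6) summed to 19.4 to 24.0 FPKM in PND and 16.1 to 20.2 FPKM in CON. Within the microglial, astrocyte and endothelial lists an unadjusted limma p below 0.05 was found for P2ry12 (log2 fold change -0.76), Gfap (0.66), Aqp4 (-0.36) and Ly6c1 (0.79), beside 3.13% of all genes. In these lists 7 of 10 microglial, 4 of 7 astrocyte and 3 of 6 endothelial markers had a positive log2 fold change, so the markers of a list did not move together. These genes are named after their values were seen, and their adjusted p was 0.9999. Their part in the levels of the members was not tested. Of peripheral leukocyte markers 3 of 6 had a row, each with at least 1 sample at 0, and their sum stayed between 0.0270 and 0.230 FPKM. Of erythrocyte markers 4 of 5 had a row, each at 0 in at least 1 sample, with sums of 0 to 2.76 FPKM in PND and 0 to 0.0769 FPKM in CON. Of these, 2 were tested, both with a positive log2 fold change, and 0 had an unadjusted p below 0.05. The sum of the choroid plexus markers (5 of 5 with a row, 3 of them at 0 in at least 1 sample) was 2.20 to 2.82 FPKM in PND. In CON it was 1.15 to 2.15 FPKM, so that the groups did not overlap, beside 7.66% of all single genes. Of the 2 choroid plexus markers that were tested, Clic6, also named after its values were seen, had an unadjusted limma p of 0.0319 (log2 fold change 0.80). Their part in the result for any member was not tested.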

How the data were processed

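According to the methods, the authors depleted rRNA before library preparation and Illumina sequencing, cleaned the reads (Seqtk), mapped them (HISAT2), counted fragments with StringTie, scaled them by TMM and deposited FPKM per gene. Build, annotation and use of strand for these libraries were not given in the methods. The submitters' processing notes name Bowtie 0.12.2, mm8 and mm9 without a role. TMM scaling assumes that most genes do not differ.

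Symbols were matched by identifier (20866 of 21006). Coordinates, GC content and overlaps came from GENCODE M21 (GRCm38) and upstream sequences from RefSeq. Skp1 was matched as Skp1a by a RefSeq synonym. Groups were compared by limma 3.58.1 (R 4.3.3; lmFit, eBayes with trend, two-sided) on log2(FPKM + 0.1), without covariates, with Benjamini-Hochberg adjustment over all 18185 genes tested. Exact tests used scipy 1.17.1 under Python 3.11.15 and were two-sided. Fragment numbers were estimated from steps in the low values: 40.3% to 44.8% of values from low counts lay within 0.05 of a whole number, so they are approximate and cover counting error only. The limma fit was also run on simulated fragments, and no result given here rests on that run. Alternatives were other pseudocounts, filters and scalings, no trend, voom on estimated fragments, GC correction (loess, span 0.3), the replicate block, and leaving out each sample.

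The members and lists were chosen with earlier results of these data known. All members were described, and of each pathway list the genes with an unadjusted p below 0.05, or else the most abundant gene. Any other gene was named after its values were seen, as said beside it. Labels give no sequencing batch. Each sample was 1 animal. The result of 1 marker gene is not reported here.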

Additional observations from a re-analysis of the deposited data

How the results depend on the processing

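Of 167 fits of single members under 17 alternatives (11 with all samples and 6 without 1 of them), 147 kept the direction and 1 had an unadjusted p below 0.05. With all samples, Nfkb2 was 0.014 at a pseudocount of 1, Ikbkb was -0.00032 with median centring, -0.0045 with quantile normalization and -0.027 with GC correction with or without the replicate block, and Nfkbia was -0.033 with GC correction with or without the block, in place of -0.09, 0.01 and 0.02. These values lie near 0 and the cause was not tested. Leaving out each sample gave log2 fold changes of -0.16 to -0.0026 for Nfkb1, -0.43 to 0.47 for Nfkb2, 0.28 to 0.65 for Rela, 0.33 to 1.001 for Relb, -0.17 to 0.15 for Rel, -0.15 to 0.33 for Nfkbia, -0.79 to 0.43 for Nfkbib, 0.13 to 0.21 for Chuk, -0.030 to 0.087 for Ikbkb and -0.94 to 0.61 for Ikbkg. The count of members with an unadjusted p below 0.05 was 0 to 1, with Rela called without CON replicate 2. The count of other pathway genes, 1 as reported, was 2 with no filter (Cxcl1 and Lcn2), 0 at a mean of at least 1 FPKM, where fewer genes are tested, and 3 with no intensity trend (Nfkbid, Birc3 and Lcn2). It was 0 to 3 when a sample was left out: 0 without PND replicate 2, 1 without PND replicate 3 (Cflar in place of Lcn2, which was not tested), 3 without CON replicate 1 (Rbx1, Lcn2 and Gadd45b) and 3 without CON replicate 2 (Nfkbid, Hdac3 and Lcn2). Nfkbid, Birc3, Cflar, Rbx1, Gadd45b and Hdac3 are named after their values were seen. The p of Lcn2 ranged from 0.00011 to 0.0194 where it was tested.

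Groups share replicate numbers 1 to 3 in the labels. Deviations of same-numbered samples correlated across genes at -0.05, -0.45 and 0.03, so the numbers were not taken to pair the samples. With the replicate block 0 members and 1 other pathway gene (Lcn2, p 0.0123) had an unadjusted p below 0.05. Nfkb2, Relb and Nfkbib rest on the fewest fragments.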
